A study of Homo sapiens with 4 samples.

Results

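The HES and HEY repressors are the transcription factors made by HES1, HES2, HES4, HES5, HES6, HES7, HEY1, HEY2 and HEYL, 9 of the 20033 protein-coding genes of GENCODE release 44. Accessible chromatin at these genes was taken from 4 lists of ATAC-seq peaks. Peaks that overlapped by at least 1 bp in any of the lists were merged into 164301 regions, and the 59 regions that overlapped 1 of the 9 gene bodies extended by 20 kb on each side were kept as members, whatever their values were.

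The cells were pancreatic progenitors (PPs) derived from the MEL1 line of human embryonic stem cells, an established line, which the study's methods name MEL1 INS GFP/W, a form with GFP inserted at an allele of the insulin gene that would be common to both groups. PPs of both groups were kept in EF6 medium, which contains B27, EGF, bFGF and the compound 616452, and received for 7 days either DMSO, the solvent control, or 1 μM I-BET151, an inhibitor of the BET bromodomain proteins that read acetylated histones. ATAC-seq inserts adapters into open DNA with the Tn5 transposase, and each library was made from 50000 cells. There were 2 libraries per group (DMSO 1 and 2, I-BET151 1 and 2), all from a single cell line, and no label says that they came from separate cultures, so p-values measure the spread between these libraries only.

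The number of peaks was 82568 and 38295 in the DMSO lists, and 84995 and 111324 in the I-BET151 lists. The depth behind them was estimated from the background of each list, with its shortest peak as the length to which reads were extended. It was 38.7 and 36.6 M reads with DMSO and 12.5 and 16.0 M reads with I-BET151. With an extension of 200 bp throughout, DMSO 2 would have 42.6 M and I-BET151 2 20.5 M reads. The smallest pileup called was 10 and 11 reads in the DMSO lists and 5 and 6 reads in the I-BET151 lists. Fewer reads at a summit were thus enough for a call in the I-BET151 lists, whereas the lowest fold enrichment called was 2.06 and 2.07 with DMSO and 2.23 and 1.98 with I-BET151. The part of depth in the results below was not tested. As a check of the label, promoter peaks were called at 8, 7, 9 and 9 of 10 PP marker genes in DMSO 1, DMSO 2, I-BET151 1 and I-BET151 2 (PTF1A in none), at 2, 2, 1 and 2 of 5 pluripotency genes (POU5F1 and NANOG in none), at 1, 0, 2 and 1 of 5 endocrine genes (INS, GCG and NEUROG3 in none), at 4, 3, 5 and 5 of 5 liver genes, at 3 of 4 intestinal genes in every list and at 3, 3, 4 and 4 of 5 mesenchymal genes. Of all 20033 protein-coding genes, 57.8% had a promoter peak in every list and 21.1% in none. Percentiles within the lists (defined below), summed over the PP markers, were 387 and 338 with DMSO and 494 and 461 with I-BET151. They were 248.9 and 137 against 298 and 333 over the liver genes, 181 and 183 against 231 and 246 over the intestinal genes, 119 and 87.9 against 170 and 167 over the mesenchymal genes, and 19.5 and 0 against 47.6 and 57.2 over the endocrine genes. These sums were higher in both I-BET151 lists for all 5 groups of genes, whereas those of the pluripotency genes overlapped (102 and 40.5 against 16.3 and 89.7). A rise was also seen over all 20033 protein-coding genes. Their median promoter percentile was 54.5 and 36.7 with DMSO and 69.6 and 71.2 with I-BET151. The part of other cell types in the results was not tested.

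HES and HEY proteins are basic helix-loop-helix repressors, and several of their genes, though not HES6, are classic direct targets of Notch signaling. A ligand on a neighbouring cell leads to cleavage of the Notch receptor. Its intracellular domain joins the DNA-binding protein RBPJ and a Mastermind coactivator at the promoters of such targets. HES and HEY proteins bind N-box and E-box-like sequences and silence other genes, HES proteins through Groucho corepressors. In the developing pancreas HES1 is known for holding progenitors back from endocrine differentiation by repressing NEUROG3.

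The promoters of the family are shown because Notch is known to act on such genes through RBPJ sites near the start. RefSeq promoters (250 bases before to 50 bases after the start, GRCh38.p14) were found for 8 of the 9 genes, and HEY1 was not among them. The RBPJ core GTGGGAA, searched on both strands, was present in 5 of the 8, against 6.25% of 35116 promoters of all genes. Bases are numbered from the transcript start and the core or its reverse complement is in capitals. HES1 (chr3:194136028-194136147, plus strand) and HES5 (chr1:2530264-2530383, minus strand) are given from -120 to -1, HES4 (chr1:1000163-1000192, minus strand) from -95 to -66, HES6 (chr2:238240042-238240158, minus strand), which holds no core, from -120 to -4, and HEY2 (chr6:125749382-125749501, plus strand) and HEYL (chr1:39639774-39639893, minus strand) from -250 to -131.
HES1: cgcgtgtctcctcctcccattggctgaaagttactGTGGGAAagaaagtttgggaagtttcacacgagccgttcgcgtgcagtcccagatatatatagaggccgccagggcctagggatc
HES4: cgattggctggggcgagtGTGGGAAagaat
HES5: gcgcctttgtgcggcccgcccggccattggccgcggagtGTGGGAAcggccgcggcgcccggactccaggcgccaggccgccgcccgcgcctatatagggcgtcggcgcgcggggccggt
HES6: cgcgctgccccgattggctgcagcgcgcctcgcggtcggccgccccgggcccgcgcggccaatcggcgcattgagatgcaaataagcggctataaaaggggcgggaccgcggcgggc
HEY2: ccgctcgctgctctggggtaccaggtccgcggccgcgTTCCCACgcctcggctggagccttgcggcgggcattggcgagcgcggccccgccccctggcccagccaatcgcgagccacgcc
HEYL: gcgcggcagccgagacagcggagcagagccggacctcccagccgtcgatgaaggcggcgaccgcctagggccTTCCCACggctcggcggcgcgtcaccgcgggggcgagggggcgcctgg
The core starts at -85 in HES1, -77 in HES4 and -81 in HES5, in the same orientation as the gene in each. HES5 has another core at -224 on the opposite strand. In HEY2 the core starts at -213 on the opposite strand and a second one starts at -4, and in HEYL it starts at -178 on the opposite strand. HES2, HES6 and HES7 hold no core in this window. The E-box-like motif CACGNG occurred in HES1 and HES7 and the N-box CACNAG in HES1, HES2 and HES7, against 30.5% and 38.0% of all promoters. CACGAG matches both letters and counts for both motifs. The 8 promoters had a median GC content of 75.7% and 42 CpG dinucleotides, against 58.7% and 14 over all promoters.

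The distal regions on which the results below turn are given on the plus strand of hg38. The first is 200 bases around the summit of the region that fell in rank at HES1 (chr3:194141700-194141899), with its N-box in capitals, and the second is the same window of the region farthest upstream of HES1 (chr3:194117259-194117458), with the reverse complement of the RBPJ core in capitals. The others hold a match to the CTCF consensus, in capitals, in a region called only with I-BET151 downstream of HES4 (chr1:984306-984345) and in a region called only with DMSO downstream of HEYL (chr1:39606343-39606382).
HES1 downstream: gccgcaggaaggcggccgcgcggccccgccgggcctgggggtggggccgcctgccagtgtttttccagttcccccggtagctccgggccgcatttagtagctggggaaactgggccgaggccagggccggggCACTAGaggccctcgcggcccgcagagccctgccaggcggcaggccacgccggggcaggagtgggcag
HES1 upstream: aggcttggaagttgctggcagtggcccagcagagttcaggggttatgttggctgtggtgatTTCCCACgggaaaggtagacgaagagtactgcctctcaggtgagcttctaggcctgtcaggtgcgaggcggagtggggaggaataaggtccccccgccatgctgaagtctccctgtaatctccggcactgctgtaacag
HES4 downstream: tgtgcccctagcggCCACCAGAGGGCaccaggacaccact
HEYL downstream: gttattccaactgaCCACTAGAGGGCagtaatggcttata
CTCF is the architectural protein that bounds chromatin loops, and its consensus was searched after the data were seen.

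Of the 59 regions, 37 (62.7%) were called in DMSO 1, 25 (42.4%) in DMSO 2, 29 (49.2%) in I-BET151 1 and 42 (71.2%) in I-BET151 2, against 47.9%, 22.9%, 49.2% and 67.7% of all regions. A region was taken as gained where both I-BET151 lists and no DMSO list called it, and as lost in the opposite case. At the HES and HEY loci 8 regions (13.6%) were gained, against 17.0% of all regions, and 6 (10.2%) were lost, against 2.37%. Another 17 (28.8%) were called in all 4 lists, against 15.6% of all regions, and the remaining 28 were called in other combinations. The gained regions were at HES4 and HES6, with 2 each, and at HES2, HES7, HEY1 and HEY2, with 1 each. The lost regions were 1 each at HES2, HES4, HES6, HES7, HEY1 and HEYL. HES1 and HES5 had no region of either kind. In bulk libraries like these, fewer cells with an open region and less opening per cell cannot be told apart. Without I-BET151 1 the gained regions numbered 20 (33.9%, against 39.3% of all regions), without DMSO 2 the lost regions numbered 15 (25.4%, against 20.4%), and with peaks of a −log10 p of at least 10 no member was lost. Regions called in a single list numbered 9 in DMSO 1 (15.3%, against 18.1% of all regions), 0 in DMSO 2 (against 1.33%), 2 in I-BET151 1 (3.39%, against 10.0%) and 12 in I-BET151 2 (20.3%, against 22.3%).

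**Figure D1:**
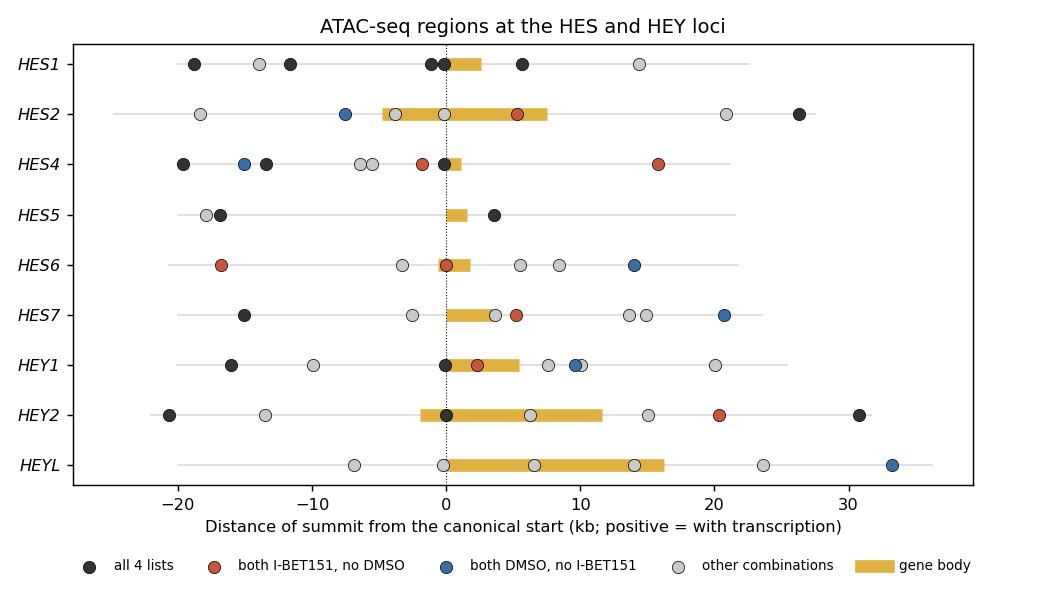
Position of the summit of each of the 59 regions (points) relative to the canonical transcript start of its gene, in kb, with 1 row per gene, the gene body as a yellow bar and the searched interval as a grey line. Point colour gives the lists that called the region: 17 regions were called in all 4 lists, 8 in both I-BET151 lists and no DMSO list, 6 in both DMSO lists and no I-BET151 list, and 28 in other combinations.

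Of the 59 regions, 10 lay within 1 kb of a transcript start of the HES or HEY gene itself, 10 within 1 kb of a start of another protein-coding gene only, and 39 near none. The loci are short of neighbours at HES1 and HEY1, where no other protein-coding gene overlaps the interval, and crowded at HES4, which shares its interval with PERM1, ISG15 and AGRN. The 17 shared regions included 7 that were more than 1 kb from every protein-coding start. The median width was 465 bp in the members and 405 bp in all regions.

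Promoters were compared by the strongest peak within 1 kb of any transcript start of a gene, as its percentile within its own list by fold enrichment (100 for the strongest peak of the list and 0 where no peak was called). The median over the 9 genes was 2.50 and 0 in the DMSO lists and 35.6 and 47.1 in the I-BET151 lists. The I-BET151 libraries were above the DMSO libraries by 40.1 on average, without overlap, and the two-sided exact permutation test over libraries gave p = 0.33, the smallest value that 2 against 2 libraries allow. Over all 20033 protein-coding genes the same medians were 54.5, 36.7, 69.6 and 71.2, a difference of 24.8. The median of the per-gene differences was much smaller, 2.0 for the 9 genes and 2.05 for all genes. With equal numbers of peaks per list the difference of the HES and HEY medians was 2.38 and with a −log10 p of at least 10 it was 7.98.

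Among the 7 genes with a promoter peak in any list, both I-BET151 lists were above both DMSO lists in 3 (HES4, HES6 and HEYL, 42.9%), against 45.3% of 15803 such genes. Both were below in HES1 alone (14.3%), against 11.4%, and by −log10 p, or with a −log10 p of at least 10, the mean difference of HES1 turned positive (5.96 and 0.36). The HES6 promoter was the only 1 of the 9 to be gained, against 6.42% of all promoters, and none was lost, against 0.479%. In the order of mean levels HEY2, HEY1 and HES1 came first in the DMSO lists, and HEY1, HEYL and HEY2 came first in the I-BET151 lists. Among these last 3 the ranges of the I-BET151 libraries overlapped, and HES6 (47.1 to 66.1) overlapped them as well. HES4 (35.6 to 47.6) overlapped HES6, and HES2 (0 to 23.7) overlapped HES1, so that only the step from HES4 to HES1 was free of overlap between neighbours in the I-BET151 lists. HES5 and HES7 had no promoter peak in any list (22.2%, against 21.1% of all protein-coding genes).

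**Figure D2:**
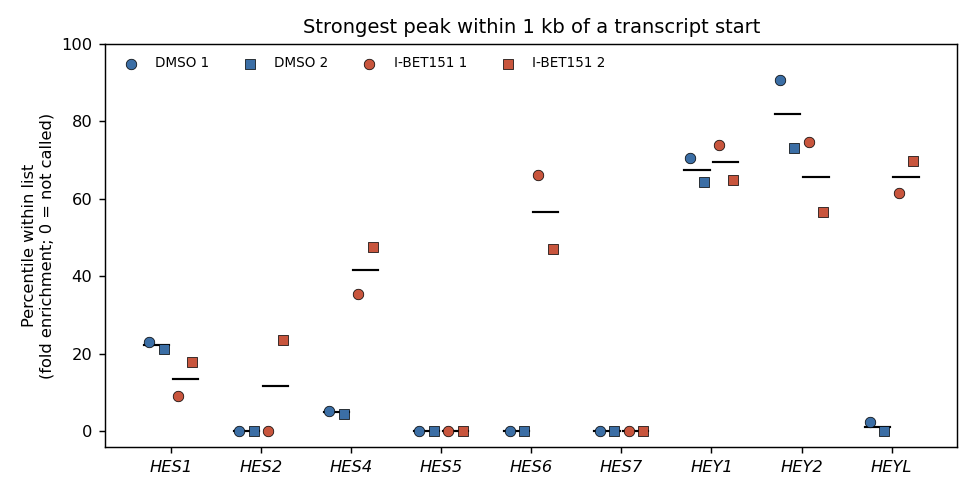
Percentile within its list, by fold enrichment, of the strongest peak within 1 kb of a transcript start for the 9 genes (y axis, 0 where not called), with DMSO in blue, I-BET151 in red, circles for library 1, squares for library 2 and black lines for group means. Both I-BET151 lists lie above both DMSO lists in HES4, HES6 and HEYL and below them in HES1, and HES5 and HES7 lie at 0 throughout.

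HES1 (chromosome 3, 194136148 to 194138732, plus strand), the most widely acting Notch effector of the family, had 7 regions in a span without other protein-coding genes. The 2 regions at its start, with summits at -1126 and -179 bp, were called in every list. The stronger of them had a percentile of 23.1 and 21.3 with DMSO and of 9.13 and 17.9 with I-BET151. Its fold enrichment went the other way, with 3.33 and 3.29 in the DMSO lists and 3.88 and 4.17 in the I-BET151 lists. Both orders were free of overlap, so the promoter stood above its own background more strongly and among the peaks of its list less strongly in the I-BET151 libraries. Fold enrichment was higher in both I-BET151 lists than in both DMSO lists in 90.1% of all shared regions, so this order is not particular to HES1. The region at -179 bp, whose interval spans the printed promoter with the RBPJ core, had a fold enrichment of 3.14 and 2.72 with DMSO and of 3.87 and 3.63 with I-BET151.

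The distal HES1 region at +5652 bp (chromosome 3, 194141278 to 194142028, intergenic, downstream of the gene) was the only member that passed the test of rank described below. Its percentile was 61.5 and 45.7 in the DMSO lists and 0.819 and 26.3 in the I-BET151 lists, which did not overlap. Its fold enrichment was 4.21 and 3.94 with DMSO and 3.16 and 4.66 with I-BET151, and here the groups overlapped. The pileup was 35 and 33 reads against 19 and 49 reads. In limma on normal scores of the ranks the region fell by 1.95 ± 0.41 (SE, adjusted p = 0.0189), a call that 503 of the 25627 shared regions (1.96%) received. The direction stayed negative on the log2 fold scale without ranks, at -0.08, but the adjusted p of limma there was 0.737, and by ranks of −log10 p it was 0.121. Without DMSO 1 the adjusted p was 0.0552 and without DMSO 2 it was 0.0656, and over the other alternatives it lay between 2.22e-05 and 0.0300. No other region within 50 kb of any of the 9 genes was called.

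The remaining HES1 regions lay upstream or farther downstream. The region at -18789 bp, which holds the RBPJ core printed above, had a percentile of 51.6 and 29.3 with DMSO and of 21.1 and 16.2 with I-BET151, without overlap, and its rank difference of -1.12 ± 0.40 did not pass (limma, adjusted p = 0.101). It passed on the log2 scale centred on the median of each list (limma, adjusted p = 0.0360) and without I-BET151 1 (limma, adjusted p = 0.0264), and over all alternatives the adjusted p of limma reached up to 0.473. The region at -11649 bp holds the core as well and had a percentile of 77.8 and 40.3 against 71.6 and 55.2, with the groups overlapping. The regions at -13921 and +14354 bp were called in I-BET151 2 alone.

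HES4 (chromosome 1, 998962 to 1000172, minus strand), a human relative of HES1 that mice lack, shares its start region with a transcript start of ISG15, an interferon-induced ubiquitin-like modifier, so the peak at -150 bp cannot be assigned to either gene alone. Its fold enrichment was 2.83 and 2.77 in the DMSO lists and 4.92 and 5.96 in the I-BET151 lists. The percentile was 5.36 and 4.58 against 35.6 and 47.6, without overlap. These percentiles come from lists of different length. With equal numbers of peaks per list they were 0 and 4.6 against 1.47 and 3.48, where the groups overlapped, and with a −log10 p of at least 10 the mean difference was 8.38 instead of 36.6. The rank difference among shared regions was 0.83 ± 0.38 and did not pass (limma, adjusted p = 0.186), and over regions called in at least 2 lists it was -0.28.

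The other shared regions of the HES4 locus had the same order of groups. At -13428 bp, in the first exon of ISG15, the fold enrichment was 4.12 and 3.00 with DMSO and 6.20 and 9.33 with I-BET151, and at -19629 bp, at the start of AGRN, which encodes the basement membrane proteoglycan agrin, it was 3.57 and 2.80 against 5.64 and 8.95. The groups were apart at both sites, as in 90.1% of all shared regions, and neither rank difference passed (limma, adjusted p = 0.299 and 0.157). The gained regions were the CTCF-consensus region at +15790 bp (fold enrichment 6.36 and 5.29) and a region at -1776 bp near an ISG15 start (3.81 and 2.48). The lost region at -15057 bp had a fold enrichment of 3.25 and 3.53 in the DMSO lists, with 21 reads in each.

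HES5 (chromosome 1, 2528745 to 2530263, minus strand), the Notch effector best known from neural progenitors, had no peak at its start in any list, and its promoter holds 2 RBPJ cores. Its 3 regions lay elsewhere, 2 of them shared. The region at +3602 bp, at the start of PANK4, had a fold enrichment of 3.76 and 2.93 with DMSO and of 8.37 and 7.03 with I-BET151. The groups did not overlap, as in 90.1% of all shared regions (limma on ranks, adjusted p = 0.203). Its rank difference was 0.92 ± 0.44, and 1.42 without I-BET151 2. The region at -16833 bp had 4.36 and 4.24 against 6.75 and 8.09, and the third was called in DMSO 1 alone. HES7 (chromosome 17, 8120592 to 8124106, minus strand), the repressor of the segmentation clock, likewise lacked a peak within 1 kb of its start. Its shared region at -15034 bp had a fold enrichment of 3.89 and 3.55 with DMSO and of 6.75 and 9.88 with I-BET151, again without overlap (limma on ranks, adjusted p = 0.317). At this locus both the gained region at +5230 bp (fold enrichment 4.75 and 4.22) and the lost region at +20745 bp (4.39 and 3.67) lay within 1 kb of starts of ALOXE3, an epidermal lipoxygenase gene.

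HES6 (chromosome 2, 238238267 to 238240662, minus strand), which opposes HES1 rather than acting downstream of Notch, had the only gained promoter of the family. No DMSO list called a peak within 1 kb of its start, and the region at +12 bp in exon 1 had a fold enrichment of 6.78 and 5.91 with I-BET151, from 31 and 48 reads, at percentiles of 66.1 and 47.1. A region at -3312 bp was called in both DMSO lists (fold enrichment 4.33 and 2.95) and in I-BET151 2 (3.63). Within 3 kb of a transcript start the percentiles were 64.1 and 9.44 with DMSO against 66.1 and 47.1, and the groups overlapped. With equal numbers of peaks per list and 1 kb, they were 0 and 0 against 26.6 and 3.30. The locus also gained a region at -16749 bp inside PER2, a circadian clock gene (fold enrichment 7.09 and 8.62), and lost one at +14016 bp (3.05 and 3.26 with DMSO). HES2 (chromosome 1, 6412418 to 6424670, minus strand), a little-studied member, had a promoter peak in I-BET151 2 alone, at a percentile of 23.7. Its gained region at +5285 bp in the gene body had a fold enrichment of 5.41 and 5.92, and its lost region at -7533 bp inside ESPN had 3.10 and 2.87. The shared region at +26339 bp, at the start of ACOT7, an acyl-CoA thioesterase gene, had 4.56 and 4.55 with DMSO and 10.9 and 11.5 with I-BET151. The groups did not overlap, as in 90.1% of all shared regions (limma on ranks, adjusted p = 0.220). With peaks of a −log10 p of at least 10 the ACOT7 region passed as up (limma on ranks, adjusted p = 0.0418).

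HEY2 (chromosome 6, 125747664 to 125761269, plus strand), known from heart and arteries, had the strongest promoter of the family in the DMSO lists. Its region at -42 bp, the widest of the 59 at 2141 bp, had a percentile of 90.7 and 73.1 with DMSO and of 74.6 and 56.7 with I-BET151. The groups overlapped, and the rank difference of -1.12 ± 0.42 did not pass (limma, adjusted p = 0.113). It passed without I-BET151 1 (limma, adjusted p = 0.0155), and over all alternatives the adjusted p of limma lay between 0.0155 and 0.806. By −log10 p the mean percentile difference was 4.44 instead of -16.2, and with equal numbers of peaks per list it was -50.8, where the groups no longer overlapped. The regions at -20640 and +30809 bp, the latter at the start of NCOA7, were called in all 4 lists with a fold enrichment from 5.11 to 5.98 with DMSO and from 8.55 to 10.04 with I-BET151. The gained region at +20317 bp had 5.20 and 3.97, from 9 reads in each library.

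HEYL (chromosome 1, 39623435 to 39639643, minus strand), a family member described in vascular smooth muscle, had the largest percentile difference of the 9 promoters in the reported setting. Its region at -200 bp was called in DMSO 1 at a fold enrichment of 2.68, was not called in DMSO 2, and had 6.41 and 7.92 in the I-BET151 lists. The percentiles were 2.50, 0, 61.6 and 69.9, without overlap, and the mean difference of 64.5 ranged from 18.1 to 69.9 over the alternatives. A region at -6891 bp had the same pattern of calls, with 2.95 in DMSO 1 and 5.15 and 5.53 with I-BET151. The lost region at +33247 bp, which holds the CTCF consensus shown above, had 3.88 and 4.04 in the DMSO lists, from 17 reads in each.

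HEY1 (chromosome 8, 79762371 to 79767857, minus strand), a Notch target known from endothelium, had a promoter region at -84 bp that was called in all lists. Its percentile was 70.6 and 64.3 with DMSO and 74.0 and 64.9 with I-BET151, so the groups overlapped. The mean difference of 2.0 was -22.6 with equal numbers of peaks per list, 25.2 with a −log10 p of at least 10 and 9.01 by −log10 p, and in both of the latter the groups did not overlap. Its fold enrichment was 4.59 and 4.65 against 7.67 and 7.35, without overlap, as in 90.1% of all shared regions. The distal region at -16026 bp had the highest fold enrichment of any member in a list, 14.01 in I-BET151 2, beside 9.23 in I-BET151 1 and 5.12 and 6.57 with DMSO. The gained region at +2292 bp lay in coding exon 5 (fold enrichment 3.71 and 3.99), and the lost region at +9630 bp had 3.97 and 3.32, from 16 and 14 reads. The remaining 4 regions were called in a single list each, 3 of them in DMSO 1.

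Fold enrichment was shifted in the whole genome, and the members moved with it. Over all 25627 shared regions the median log2 difference between I-BET151 and DMSO was 0.83, and over the 17 members it was 0.78. In 16 of the 17 (94.1%) the fold enrichment of both I-BET151 lists exceeded that of both DMSO lists, against 90.1% of all shared regions, and the exception was the HES1 region at +5652 bp. Because of this shift, regions were tested by their rank among the shared regions of each list, as normal scores in limma.

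**Figure D3:**
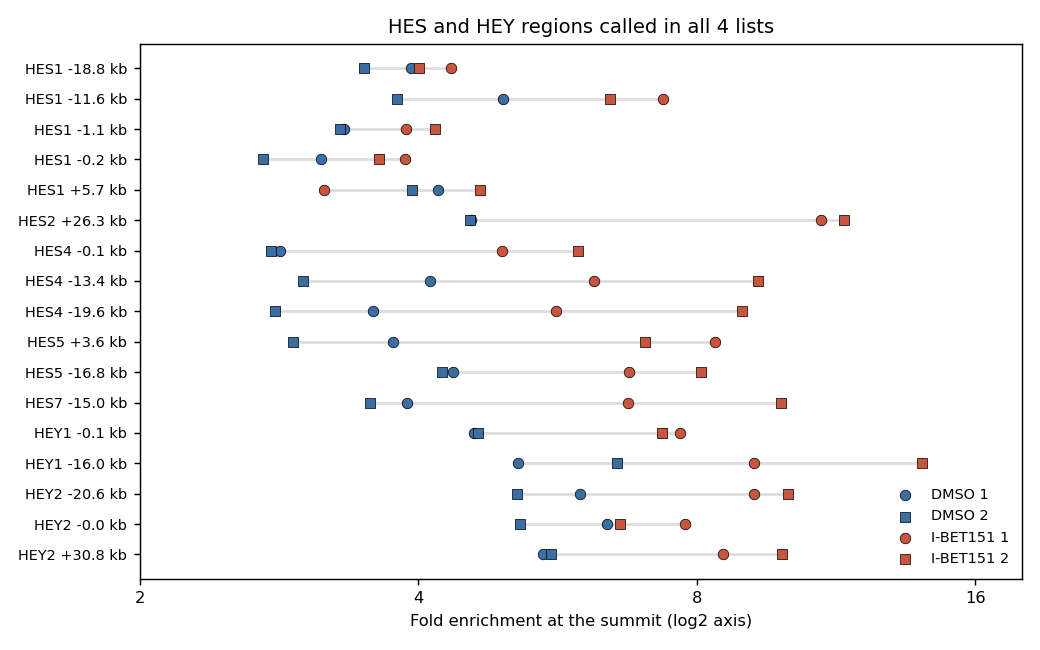
Fold enrichment at the summit (x axis, log2 scale) of the 17 HES and HEY regions called in all 4 lists, labelled by gene and distance from the canonical start, with 1 point per library. The I-BET151 points lie to the right of the DMSO points in 16 regions, and in the HES1 region at +5.7 kb the groups overlap.

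Of the 17 members 7 had a higher and 10 a lower mean rank with I-BET151, with a median difference of -0.25 against -0.03 over all shared regions. Members called as up numbered 0 and members called as down numbered 1, against 3.41% and 1.96% of all shared regions. At an unadjusted p under 0.05 in limma there were 6 members (35.3%), 2 up and 4 down, against 24.9% of all shared regions. All 5 shared HES1 regions and 4 of the 5 at the HEY genes had negative values, those at HES2, HES4 and HES7 had positive values, and HES5 had one of each. Only the HES1 region at +5652 bp passed, and on the log2 fold scale without ranks it was the only member with a negative difference. For HES1 at -11649 bp, HES5 at -16833 bp, HEY1 at -84 bp and HEY2 at -20640 and +30809 bp the mean percentile among all peaks of a list had the opposite sign as well. On the log2 fold scale without ranks, where the common shift is retained, 12 of the 17 (70.6%) were called as up and 0 as down, against 76.5% and 0.0858% of all shared regions.

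**Figure D4:**
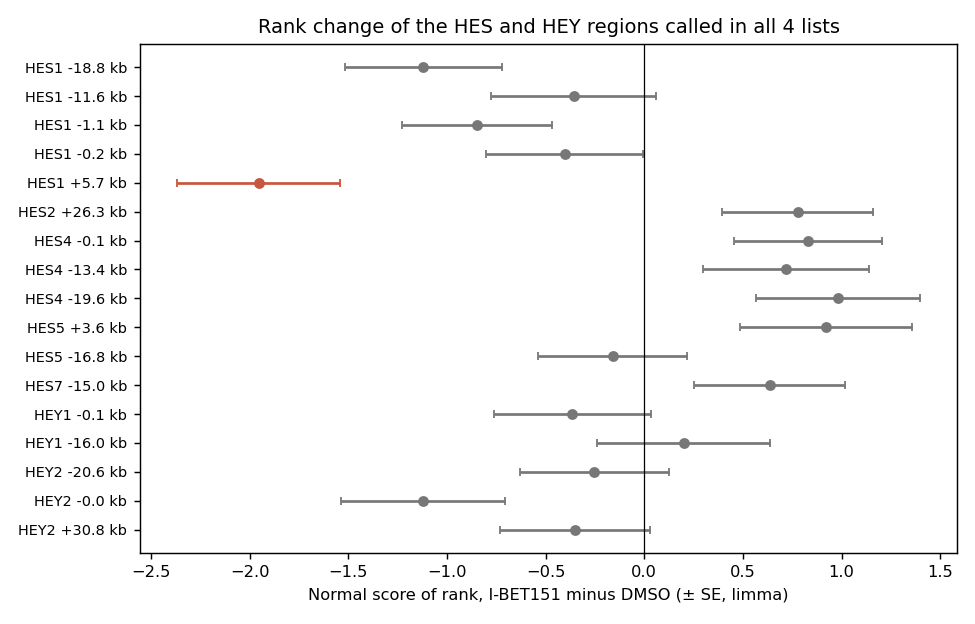
Difference in the normal score of the rank, I-BET151 minus DMSO (x axis), with its limma standard error (bars) for the 17 HES and HEY regions called in all 4 lists. The HES1 region at +5.7 kb, in red, at -1.95, is the only 1 with an adjusted p under 0.05.

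Within 200 bases around the summit, the RBPJ core was found in 8 of the 59 regions (13.6%), against 4.84% of all regions. Besides the promoters of HES4, HEY1, HEY2 and HEYL these were the HES1 regions at -18789 and -11649 bp, the HEY1 region at +7567 bp and the HEYL region at +6521 bp. CACGNG was found in 11 regions (18.6%, against 11.1%), CACNAG in 24 (40.7%, against 33.9%) and the CTCF consensus in 3 (5.08%, against 1.86%), the third being the HES5 region at -17927 bp called in DMSO 1 alone. The median GC content of these windows was 61.5% in the members and 48.0% in all regions, and it was 70.2% in the gained and 56.2% in the lost members, against 45.0% and 54.5% in all gained and lost regions. A match to these letters is not a measurement of binding.

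The Notch pathway upstream was read at the promoters of 30 other genes for ligands, receptors, processing enzymes and nuclear cofactors. Promoters were gained at 6 of them (against 6.42% of all protein-coding genes), lost at 0 (against 0.479%), shared at 20 (66.7%, against 57.8%) and called in no list at 3 (10.0%, against 21.1%). Among the 27 with a promoter peak both I-BET151 lists were above both DMSO lists in 15 (55.6%, against 45.3%) and below in 5 (18.5%, against 11.4%). The median percentile difference over the list was 8.27, against 2.05 over all protein-coding genes. The gained promoters were those of the receptor NOTCH1, the ligand DLL4, the fringe glycosyltransferases LFNG and MFNG, and DTX1 and NUMBL, which modulate the receptor. Of 24 promoter regions of the list that were tested, 1 rose in rank with I-BET151 (4.17%, against 3.41% of all shared regions) and 0 fell (against 1.96%). It belonged to POFUT1, which fucosylates Notch receptors, and had a fold enrichment of 5.35 and 3.99 with DMSO and of 10.7 and 12.4 with I-BET151, with a difference of 1.56 ± 0.41 in normal score (limma, adjusted p = 0.0396). At an unadjusted p under 0.05 there were 5 of the 24 (20.8%, against 24.9%), 3 up and 2 down. Of the 5 promoter regions of the HES and HEY genes themselves that were tested, 0 were called by limma and 3 (against 24.9%) had an unadjusted p under 0.05, 1 up and 2 down.

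On the output side, the Groucho family genes TLE1 to TLE5 had 4 promoters called in all lists (80.0%, against 57.8% of all protein-coding genes), TLE5 being the exception. Of their 5 tested regions 0 were called by limma, against 3.41% up and 1.96% down of all shared regions. None had an unadjusted p under 0.05 in limma, against 24.9%. Among 5 genes known to be repressed by HES factors, NEUROG3 and PTF1A had no promoter peak in any list, against 21.1% of all protein-coding genes. CDKN1B had a promoter peak in every list and NEUROD1 in I-BET151 1 alone. Of these 5 promoters 1 was gained (against 6.42% of all protein-coding genes) and 0 were lost (against 0.479%). Of 2 tested regions of that list 0 were called by limma and 0 had an unadjusted p under 0.05.

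Among the 11583 genes with a promoter peak in all 4 lists other than the gene itself, the log2 fold enrichments nearest to those of HES1 over the 4 lists were those of ATP2C2, EMID1 and SFRP5, at Euclidean distances of 0.098, 0.098 and 0.13. The nearest to HEY1 were SCD, SEPTIN11 and JARID2, at distances of 0.015, 0.038 and 0.077. The limit of 20 kb was not a natural edge. The last regions inside it lay 18935 bp from HEY2, with fold enrichments of 5.46, 5.56, 8.55 and 9.89 in DMSO 1, DMSO 2, I-BET151 1 and I-BET151 2, and 19096 bp from HES4, which is the AGRN region above. The next outside it lay 20321 and 21522 bp from HES1, the nearer called in DMSO 1 and I-BET151 2 only (3.31 and 3.27) and the farther in all lists but DMSO 2 (3.86, 6.07 and 6.17).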

How the data were processed

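ATAC-seq peaks of 4 libraries were used. The authors' methods and processing notes name Bowtie2 (v2.2.5) for alignment to hg38, removal of duplicate and mitochondrial reads, and MACS2 (v2.1.2) for peak calling, which gave 1 list per library and used no control. Each deposited list gives each summit a fold enrichment (a ratio), 2 columns of −log10 values, for p and for q, and a score. Neither the score nor q was used. The methods state a read extension of 200 bp, and the shortest peak, which MACS2 by default sets to that length, was 200, 233, 200 and 256 bp in DMSO 1, DMSO 2, I-BET151 1 and I-BET151 2. The lists also reach below the −log10 p of 5 in the methods.

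Peaks were merged at 1 bp of overlap and ranked within each list with Python 3.11.15, pandas 2.3.3 and scipy 1.17.1. Pileups in whole reads were solved from fold enrichment and p-value. Depths were taken from the background with the shortest peak as the read extension and a genome size of 2.7e+09. Regions that all lists called (25627) were compared with limma 3.58.1 (R 4.3.3) on normal scores of within-list ranks, with Benjamini-Hochberg adjustment at 0.05. In simulated data of 25627 regions, 63.0% of 200 regions changed by 2 and 98.5% of those changed by 3 were recovered, with 5 and 6 other calls. All members, every gained, lost or called region at their loci, and pathway genes with a called, gained or lost promoter were named, except 1 gene that is not reported here. The members and lists were chosen with earlier results of these data known. Gene positions came from GENCODE release 44 on hg38, and promoter sequences from RefSeq (GRCh38.p14). Same-numbered libraries shared a number in the labels and the way it was written, and were deposited side by side. The shortest peak was 200 bp in DMSO 1 and I-BET151 1, and 233 and 256 bp in DMSO 2 and I-BET151 2. No label says whether same-numbered libraries were made together, and this was not tested. Alternatives covered peak thresholds, list lengths, overlap, locus and promoter width, rank measure, scale, left-out libraries and pairing.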

Additional observations from a re-analysis of the deposited data

How the results depend on the processing

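The 8 gained regions (13.6% of the members, against 17.0% of all regions) became 4 of 33 with equal numbers of peaks per list (12.1%, against 9.19%), 3 of 14 in gene bodies only (21.4%) and 16 of 119 with 50 kb on each side (13.4%), and ranged from 8 to 20 when 1 library was left out. The 6 lost regions (10.2%, against 2.37%) became 0 of 33 with peaks of a −log10 p of at least 10 (against 0.269%) and 0 of 14 in gene bodies only, 3 of 33 with equal numbers of peaks (9.09%, against 5.85%) and 10 of 119 with 50 kb (8.40%), and ranged from 6 to 15 when 1 library was left out. The difference in the median promoter percentile kept its direction in every alternative run, between 2.38 and 68.9. Members called as up in rank changed from 0 to 12 on the log2 fold scale without ranks and to 1 with a −log10 p of at least 10, and ranged from 0 to 1 when 1 library was left out. Members called as down changed from 1 to 0 by ranks of −log10 p, on the log2 fold scale, with a −log10 p of at least 10, with equal numbers of peaks and in gene bodies only, to 2 on the log2 scale centred on the median of each list and to 9 over regions called in at least 2 lists, and ranged from 0 to 3 when 1 library was left out. Among members called as up, the 12 were 70.6% of 17 tested, against 76.5% of all regions tested, and the 1 was 12.5% of 8, against 6.36%. Among members called as down, the 2 were 11.8% of 17 tested, against 4.33%, and the 9 were 25.0% of 36, against 8.93%. The 36 include the 6 lost regions, which entered through their DMSO calls alone. Their fall in rank follows from those calls, so the 25.0% is not a result apart from the count of lost regions. The HES1 region at +5652 bp was not called in all 4 lists with a −log10 p of at least 10 or with equal numbers of peaks, so it was not tested there. Where a group was reduced to 1 library, that library was taken to vary like the other group.

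Same-numbered libraries did not deviate together across all 25627 shared regions (r = -0.14), so the pairing is given here only. Over the 17 shared regions of the HES and HEY loci r was 0.23. With the replicate block, pair 1 had 10 gained and 18 lost regions (16.9% and 30.5%, against 28.1% and 26.8% of all regions) and pair 2 had 23 gained and 6 lost (39.0% and 10.2%, against 48.6% and 3.84%), the median promoter percentile differed by 33.1 and 47.1, and 0 members were called as up and 1 as down. With the numbers crossed, an alternative added after seeing the data, DMSO 1 against I-BET151 2 had 20 gained and 15 lost regions (against 40.7% and 20.9% of all regions), DMSO 2 against I-BET151 1 had 12 and 8 (against 32.4% and 6.13%), and 3 members were called as down, HES1 at +5652 and -18789 bp and HEY2 at -42 bp.

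On the log2 fold scale without ranks the sign turned for HES1 at -18789 bp (0.17), -11649 bp (0.67), -1126 bp (0.28) and -179 bp (0.36), HES5 at -16833 bp (0.78), HEY1 at -84 bp (0.70) and HEY2 at -20640 bp (0.80), -42 bp (0.32) and +30809 bp (0.74). By ranks of −log10 p it turned for HES7 at -15034 bp (-0.091), HEY1 at -84 bp (0.25) and HEY2 at +30809 bp (0.063). It also turned for HES4 at -150 bp over regions called in at least 2 lists (-0.28), for HES5 at -16833 bp with a −log10 p of at least 10 (0.19), and, among fits without 1 library, for HES1 at -11649 bp without I-BET151 2 (range -0.80 to 0.089) and for HEY1 at -16026 bp without DMSO 1 and without I-BET151 2 (range -0.28 to 0.68). The cause was not tested.

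Over all shared regions the calls were 875 up and 503 down. They were 8 and 27 by ranks of −log10 p, 19604 and 22 on the log2 fold scale, where the common shift of 0.83 is kept, 597 and 1109 on the centred log2 scale, 4652 and 7073 over regions called in at least 2 lists and 1985 and 1567 with the numbers crossed, and between 192 and 1799 up and 145 and 1734 down when 1 library was left out. Pileups of 9 to 116 reads lie behind the named peaks, and their counting error is not in the spread of 2 libraries.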
